A study of Mus musculus with 2 samples.

Results

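Aquaporins are the channels through which water crosses cell membranes. The mRNAs of 10 aquaporin genes were examined in ureters of E18.5 mouse embryos, all genes whose array name was Aqp1, Aqp2, Aqp3, Aqp4, Aqp5, Aqp6, Aqp7, Aqp8, Aqp9 or Aqp11, out of 29923 genes measured. Every probe of these genes was used, 15 probes in all, and each was printed on 4 spots of each array. The ureters came from NMRI embryos, and each of 2 two-colour arrays set RNA of a Pparg-cKO pool against RNA of a control pool. Pparg-cKO embryos carried Pax2-cre/+ and floxed Pparg on both alleles, whereas controls were Pparg(fl/?), with 1 floxed allele, the other not given, and no cre. The pools of replicate 1 were female and those of replicate 2 male, with the dyes exchanged, so that sex, dye orientation and array cannot be told apart. Per the study, Pax2-cre acts in the ureteric epithelium, the nephric duct and the collecting ducts of the kidney. Whole ureters also hold muscle, connective tissue and vessels. Embryos were pooled, so that the n of 2 counts pools and not animals.

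Aquaporins form tetramers in which every subunit has a pore of its own. One branch of the family conducts water alone, another, the aquaglyceroporins, also conducts glycerol and other small uncharged solutes such as urea, and Aqp11 belongs to a divergent branch found on intracellular membranes. In the kidney, vasopressin moves Aqp2 into the apical membrane of collecting duct cells, and water leaves these cells through Aqp3 and Aqp4 on the basolateral side. The urothelium of the ureter, in contrast, is known as a barrier that keeps urine apart from the tissue, and Aqp3 is a known product of urothelial cells. PPARG, the product of Pparg, is a nuclear receptor that binds DNA together with a retinoid X receptor.

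Of the 8 aquaporins that could be tested, Aqp3 passed the test, and its mRNA was 2.54-fold lower in Pparg-cKO ureters. The other 7 did not pass, and Aqp6 and Aqp9 were not detected. Aqp3 encodes an aquaglyceroporin. Its only probe lies on the minus strand at chr4:41039962-41040021 of the mouse build mm9, and its first 30 bases are shown because every Aqp3 value rests on this probe, beside the same stretch of both probes for Aqp11, which read different places of 1 transcript.
Aqp3: atctggagctatgacccttgactgggggct
Aqp11 probe 1: ctcgagtgatgtattaaatgctgctagaaa
Aqp11 probe 2: ccgtgctttgacgaactcttctataagttt
The processed signal, which is the spot brightness after the scanner software has removed background and balanced the dyes, was 648 in the female control pool and 200 in the female Pparg-cKO pool. It was 566 in the male control pool and 258 in the male Pparg-cKO pool. Both control pools were thus above both Pparg-cKO pools. The log2 ratio of Pparg-cKO over control, normalised by loess within each array, was -1.60 in females and -1.09 in males, 3.02-fold and 2.13-fold lower.

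These signs follow the value table that the authors deposited, and on both arrays they run opposite to the dye labels, under which control RNA was red on replicate 1 and green on replicate 2. The deposited direction is also that of the study's text and its tissue sections. For Aqp3 itself, the study describes the stain in sections as only weakly affected in the mutant. Were the dye labels correct instead, higher and lower would change places throughout, with sizes, totals and p-values as given. The targeted gene was higher in the Pparg-cKO pools in the deposited direction, and by the dye labels it would be lower. Pparg gave processed signals of 6113 in control and 12357 in Pparg-cKO females, and of 6688 and 12930 in males. Its mean log2 ratio was 0.97 ± 0.02 (SD, n = 2 arrays), with an adjusted p of 0.0373 (limma), and 0.0620 to 0.0970 with scanner-processed signals, with median centring and without the filter on dim probes (0.533 with the deposited value table). The study describes a Pparg transcript without the deleted exons that was increased in the mutant at this stage.

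The mean log2 ratio of Aqp3 was -1.34 ± 0.36 (SD, n = 2 arrays), with a 95% interval from -1.74 to -0.95 and an adjusted p of 0.0437 in limma over 22499 genes. Aqp3 was 1 of 8 members tested that passed an adjusted p of 0.05, whereas 0.751% of all genes tested passed and 0.369% passed as lower. By the fold rule, for which both arrays must show a 1.5-fold change with the same sign and the brighter pool of each must reach a signal of 100, Aqp3 passed as 1 of 3 members bright enough, against 1.84% of all genes bright enough, or 1.05% as lower. Its fall ranked 49 among 147 genes that were lower by this rule, and 50 among 83 genes that were lower in limma. The call was close to the threshold. The adjusted p was 0.0909 with scanner-processed signals, 0.103 without the filter on dim probes and 0.533 with the deposited value table, from which limma called 0 genes (2101 had an unadjusted p under 0.05). The mean log2 ratio lay between -1.41 and -1.24 under all 7 alternatives run on both arrays, and Aqp3 passed the fold rule under each of them.

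**Figure D1:**
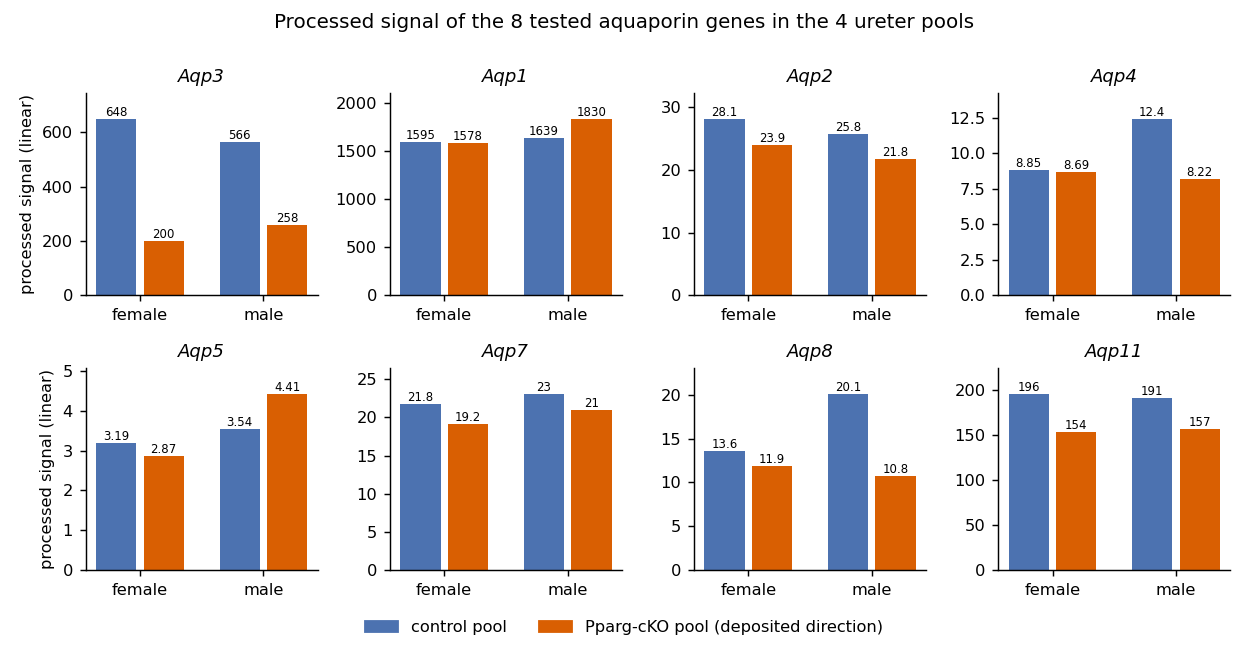
Processed signal (linear scale from 0) of the 8 aquaporin genes that were tested, in the 4 ureter pools, with 1 bar for each pool; a gene is represented by its brighter probe and each panel has its own axis. Both Pparg-cKO bars of Aqp3 (200 and 258) lie below both control bars (648 and 566), while the bars of Aqp1 (1578 to 1830) and Aqp7 (19.2 to 23.0) differ little.

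The spots of the Aqp3 probe gave the precision within an array. The 4 spots of the female array had log2 ratios from -1.79 to -1.45 (SD 0.15), and the 4 of the male array from -1.23 to -0.92 (SD 0.14). All 8 spots were therefore below 0, and those of the arrays did not overlap. The spread between arrays, 0.36, was larger than the spread between spots. Whether the fall differed between female and male pools could not be tested with 1 array of each. With median centring in place of loess the values moved apart to -1.68 and -0.81.

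**Figure D2:**
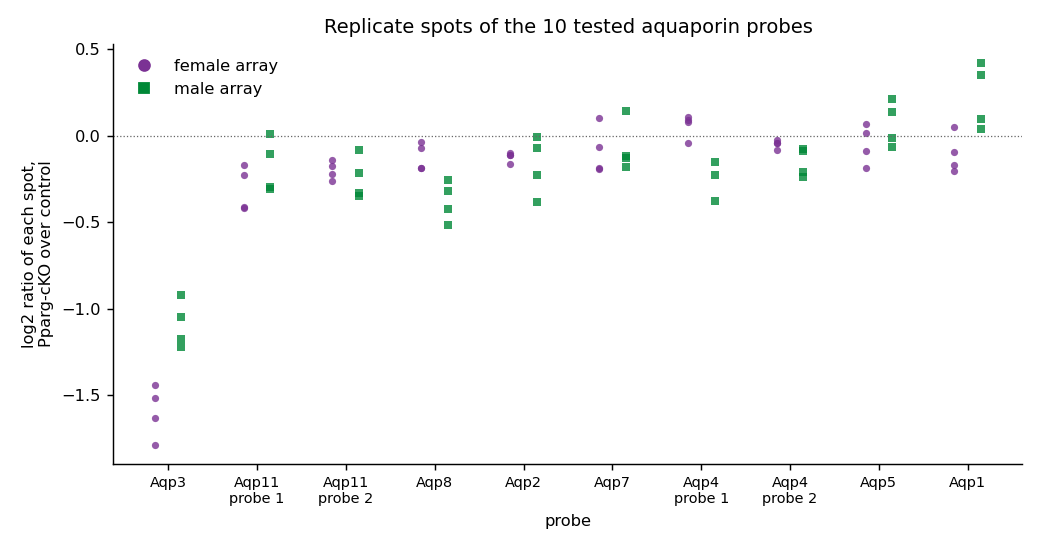
Log2 ratio (Pparg-cKO over control) of each replicate spot of the 10 aquaporin probes tested, on the female (circles) and male (squares) array. The 8 spots of Aqp3 lie between -1.79 and -0.92, below all spots of the other probes.

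Among the channels that conduct water alone, Aqp1, a channel of vascular endothelium, red blood cells and the proximal tubule, gave closely similar signals in all pools. These were 1595 in control and 1578 in Pparg-cKO females, and 1639 in control and 1830 in Pparg-cKO males. In females the log2 ratio was -0.11 and in males 0.23, which gave a mean of 0.06 (95% interval -0.26 to 0.39) and an adjusted p of 0.967 in limma. The direction thus differed between the arrays, and a change larger than 1.31-fold upwards lay outside the interval. Its probe lies at chr6:55298480-55298539 (mm9).

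Aqp2, the vasopressin-regulated channel of the collecting duct, gave signals of 28.1 and 23.9 in control and Pparg-cKO females and of 25.8 and 21.8 in males. All these signals were well above background by the scanner's criterion, although they were below the brightness of 100 that the fold rule requires. The log2 ratio was -0.12 and -0.17, with a mean of -0.15 ± 0.04 (SD, n = 2 arrays, adjusted p of 0.800 in limma). Aqp2 was measured by a probe of 60 bases whose ends lie 977 bases apart in the genome, at chr15:99412578-99413554 (mm9), so that it spans at least 1 intron and reports spliced RNA.

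Aqp4, the other basolateral water channel of the collecting duct and the main one of astrocytes, was covered by a pair of probes. The brighter one gave 8.85 in control and 8.69 in Pparg-cKO females, and 12.4 and 8.22 in males. Its log2 ratios were 0.06 and -0.25 and those of the other probe -0.05 and -0.16, with an adjusted p of 0.930 for the gene in limma. The direction on the female array thus depended on the probe. The mean for the gene, -0.10, became -0.34 with scanner-processed signals and -0.49 with the deposited value table (adjusted p of 0.763 and 0.702). On the male array 1 of the 4 spots of the brighter probe was left out as an outlier.

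Aqp5, a channel of salivary, lacrimal and sweat glands, was close to the limit of detection. One of its probes was well above background in the female control pool, at 3.19, and in the male Pparg-cKO pool, at 4.41, but not in the female Pparg-cKO pool, at 2.87, or the male control pool, at 3.54. The 2 pools in which it was detected were those of the green channel on each array. Its log2 ratios were -0.05 and 0.07 (adjusted p of 0.995 in limma), and the other probe was not well above background in any pool.

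Aqp6, which resides in vesicles of collecting duct intercalated cells, was not well above background in any pool with either probe. The same held for Aqp9, an aquaglyceroporin of hepatocytes, with its only probe, and for the second probe of Aqp8. The 5 probes without detection read between 0.717 and 2.64. These genes and probes did not enter the test with the filter on dim probes, and their ratios carry no direction. Without the filter, Aqp6 and Aqp9 had an adjusted p of 0.999 in limma. Mip and Aqp12, the other members of the family among the fixed lists, were likewise not above background.

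Aqp8, a channel of the gut, pancreas and liver, had a probe with signals of 13.6 in control and 11.9 in Pparg-cKO females, and of 20.1 and 10.8 in males. In females the log2 ratio was -0.12 and in males -0.38, which gave a mean of -0.25 (95% interval -0.55 to 0.05) and an adjusted p of 0.672 in limma. At such brightness the offset of 50 that was added to both channels compresses ratios. Without it the mean was -0.40 (adjusted p of 0.386), and with scanner-processed signals -0.54 (adjusted p of 0.599). The Pparg-cKO value was the lower one in both pairs, but the Aqp8 difference did not exceed the error under any of these settings.

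Aqp7, an aquaglyceroporin through which fat cells release glycerol, gave 21.8 and 19.2 in control and Pparg-cKO females and 23.0 and 21.0 in males. The log2 ratios were -0.08 (female) and -0.07 (male) (adjusted p of 0.934 in limma), with a 95% interval of the mean from -0.34 to 0.19. Aqp7 is of interest as the neighbour of Aqp3. In the RefSeq table of assembly GRCm38.p6 the protein-coding genes Nfx1, Aqp7, Aqp3, Nol6 and Ube2r2 follow each other on chromosome 4. None of the other 4 genes passed a test, with mean log2 ratios of 0.07 for Nfx1, -0.08 for Aqp7, 0.29 for Nol6 and 0.18 for Ube2r2 (adjusted p of 0.753 for Nol6 and higher for the others in limma). The change of Aqp3 was thus not found in the genes beside it, although the 95% interval for Aqp7 still allowed a fall by 0.34 on the log2 scale. On chromosome 15, Aqp2, Aqp5 and Aqp6 lie side by side, and none of these passed a test.

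Aqp11, an intracellular channel whose loss causes cystic kidneys in mice, had the lowest adjusted p after Aqp3 in the limma fit as reported. Aqp8 had a lower one than Aqp11 without the offset (0.386 against 0.662) and with scanner-processed signals (0.599 against 0.643). The brighter probe of Aqp11, at chr7:104874889-104874948 (mm9), gave signals of 196 in control and 154 in Pparg-cKO females and of 191 and 157 in males. The second probe, at chr7:104877482-104877541 (mm9), gave 114 and 96.8 in females and 109 and 84.7 in males. Both probes therefore read lower in the Pparg-cKO pool of each pair. The log2 ratios were -0.31 and -0.17 for the first and -0.20 and -0.24 for the second probe. The mean of the first, -0.24 ± 0.09 (SD, n = 2 arrays), had a 95% interval from -0.52 to 0.03 and an adjusted p of 0.651 in limma, so that the difference, 1.18-fold, was not larger than the error.

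**Figure D3:**
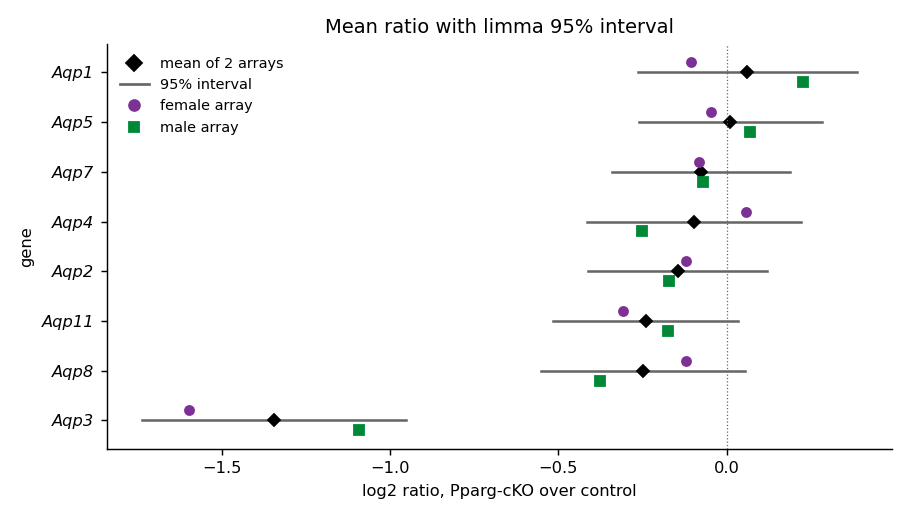
Mean log2 ratio (Pparg-cKO over control, diamonds) of the 8 aquaporin genes tested with the 95% interval from limma (lines) and the values of the female (circles) and male (squares) array. The interval of Aqp3 (-1.74 to -0.95) lies apart from 0, and those of the other 7 genes include 0.

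Over the 8 members tested, the median log2 ratio was -0.12, against 0.01 over all genes tested. It was -0.18 without the offset, and -0.27 both with scanner-processed signals and with the deposited value table. Without Aqp3 the median of the other 7 was -0.10, with means from -0.25 for Aqp8 to 0.06 for Aqp1. The Pparg-cKO pool was the lower one on both arrays for 5 of 8 members, compared with 26.2% of all genes tested. The intervals of the other 7 members reached down to a 1.47-fold fall (Aqp8) and up to a 1.31-fold rise (Aqp1). Changes of a gene that lie inside its own interval were not excluded by these 2 arrays. These limits hold for ratios with the offset, which are smaller for dim probes. Signals of different probes depend on their sequences as well as on mRNA abundance, and no order of levels between aquaporins was drawn from them.

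Aqp3 lay among the genes that fell on both arrays, as the plot of the female against the male array shows. The 5 genes whose pair of ratios was nearest to that of Aqp3 were Gcnt3, an enzyme that branches mucin O-glycans, Cysrt1, a cysteine-rich epithelial protein, Shh, the hedgehog ligand, Rnf144b, a ubiquitin ligase, and Fa2h, which hydroxylates the fatty acids of sphingolipids. Their distances from Aqp3, over the plane of the 2 log2 ratios, were between 0.11 for Gcnt3 and 0.17 for Fa2h. Cysrt1 (mean log2 ratio of -1.38) and Rnf144b (-1.46) also passed limma, with adjusted p of 0.0263 and 0.0313, whereas Gcnt3 (-1.31, adjusted p of 0.0685), Shh (-1.40, 0.0580) and Fa2h (-1.32, 0.0868) did not. By the fold rule Cysrt1, Rnf144b, Shh and Fa2h passed as lower, while Gcnt3 was not bright enough. Like that of Aqp3, the limma calls of Cysrt1 and Rnf144b were lost with scanner-processed signals (0.0584 and 0.0585) and without the filter on dim probes (0.0719 and 0.0809). The likeness rests on 2 arrays that also served to measure Aqp3.

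**Figure D4:**
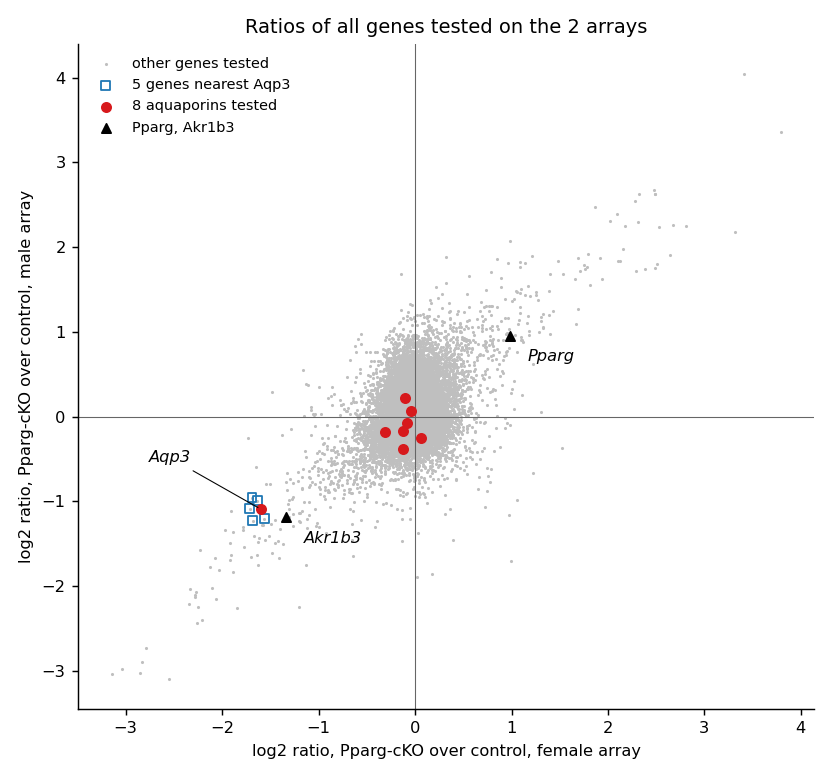
Log2 ratio (Pparg-cKO over control) on the female (x axis) and male (y axis) array for all 22499 genes tested (grey), the 8 aquaporins tested (red), the 5 genes nearest to Aqp3 (squares), and Pparg and Akr1b3 (triangles). Aqp3 (-1.60, -1.09) lies at the lower left, and the other 7 aquaporins lie within the cloud around 0.

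The solutes and signals linked to these channels were then examined with fixed gene lists. Among genes of urea and glycerol transport and metabolism, 0 of 12 tested passed limma and 0 of 9 bright enough passed the fold rule. The median log2 ratio of the list was 0.02, from medians of -0.15 in females and 0.15 in males. Slc14a1, a urea transporter, and Gyk, the kinase that phosphorylates glycerol, are named here after their values were seen. Slc14a1 gave signals of 918 and 615 in control and Pparg-cKO females and of 927 and 639 in males, with log2 ratios of -0.58 and -0.55 (adjusted p of 0.154 in limma). Gyk gave 183 and 263 in females and 220 and 287 in males, with log2 ratios of 0.46 and 0.42 (adjusted p of 0.277). Neither difference passed.

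In the list of vasopressin signalling and osmotic response, 1 of 11 genes tested passed limma, against 0.751% of all genes tested. The same gene passed the fold rule as 1 of 7 bright enough, against 1.84% of all genes bright enough. This was Akr1b3, the aldose reductase that makes the osmolyte sorbitol from glucose. Its signal fell from 17525 in control to 7119 in Pparg-cKO females, and from 15766 to 6850 in males. The log2 ratios were -1.34 and -1.19 and limma gave an adjusted p of 0.0213, which was 0.0584 with scanner-processed signals and 0.533 with the deposited value table. The osmotic transcription factor Nfat5 had a mean log2 ratio of -0.10 (adjusted p of 0.904), the osmolyte transporters Slc5a3 and Slc6a12 of 0.13 and -0.07, and the vasopressin receptor gene Avpr2, with signals from 5.23 to 8.63, of 0.20 (adjusted p of 0.721). The median of the list was 0.10. These genes other than Akr1b3 are named after their values were seen, and none passed a test.

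Markers of the cell types that carry aquaporins were set beside these values. In whole ureters, fewer cells of a type and less RNA per cell cannot be told apart. For Aqp3, the urothelial list was set beside it, of which 1 of 9 genes passed limma and 3 passed the fold rule, all as lower. The shares over all genes as lower were 0.369% in limma and 1.05% by the fold rule. The Pparg-cKO pool was lower in both pairs for 6 of its 9 genes, against 26.2% of all genes tested. The summed signal of the 9 was 84197 in control and 51433 in Pparg-cKO females, and 74029 and 59592 in males. The largest share came from Upk3a, at 41122 and 31197 in females and 36165 and 32498 in males. Krt20, a keratin of superficial cells, and the plaque proteins Upk1a and Upk1b passed the fold rule as lower, with mean log2 ratios of -3.09, -1.51 and -1.02, of which Krt20 also passed limma (adjusted p of 0.00620). The general epithelial genes Cdh1 and Epcam did not pass a test (adjusted p of 0.642 and 0.273). The log2 ratio of Cdh1 was 0.07 in females and 1.10 in males, and that of Epcam 0.41 and 0.48. All 9 urothelial genes were well above background. The part of the urothelial genes' shift in the Aqp3 result was not tested.

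For Aqp2, Aqp4 and Aqp6, the collecting duct list showed a summed signal of 298 in control and 800 in Pparg-cKO females, and of 320 and 898 in males. This sum followed Fxyd4, a regulator of the sodium pump, whose signal was 77.4 and 536 in females and 109 and 596 in males (mean log2 ratio of 2.38, adjusted p of 0.00620 in limma). Of 7 genes tested in this list, 5 were higher on both arrays, against 5986 of all 22499 genes tested. A further 1 was lower on both, and the 6 other than Fxyd4 did not pass. The 5 include the dim Avpr2 and Slc4a1, which also stand in the vasopressin and erythroid lists. Aqp2, at -0.15, was lower on both arrays without passing a test. The part of these genes in the aquaporin values was not tested. With the deposited value table, which gave no limma call at all, Fxyd4 and Krt20 had an adjusted p of 0.533. The proximal tubule list, relevant for Aqp1, was lower on both arrays for 6 of 6 genes tested, against 26.2% of all genes tested. Its median log2 ratio was -0.48, and only 1 of its genes was bright enough for the fold rule. That gene, Fbp1, an enzyme of gluconeogenesis, passed limma and the fold rule (mean of -1.14, adjusted p of 0.0340, but 0.0625 with scanner-processed signals and 0.0726 without the filter). The summed signal of the proximal tubule list was 369 and 242 in females and 420 and 189 in males. Aqp1 signals were between 1578 and 1830, and the part of these genes in the Aqp1 values was not tested.

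Endothelial and erythroid genes, whose cells are also known to carry Aqp1, had medians of 0.12 and 0.11, and 0 of 7 and 0 of 6 passed either rule. Which cells gave the Aqp1 signal in these pools was not tested. The liver list, relevant for Aqp8 and Aqp9, differed between the pairs. Its summed signal was 1834 in control and 1767 in Pparg-cKO females, but 3868 and 2039 in males, with median log2 ratios of -0.01 and -0.83. Aqp8 also had its larger difference in the male pair, and the part of the liver genes in this was not tested. Skeletal muscle genes, whose fast fibres carry Aqp4, summed to 8186 and 7633 in females and to 9373 and 6632 in males, with a median of -0.21 and 0 of 7 genes called. Most of this sum came from Acta1, at 6363 and 6275 in females and 7253 and 5354 in males. Of the 7 genes, 5 were lower on both arrays, against 26.2% of all genes tested. Glial, leukocyte and smooth muscle genes had medians of -0.01, 0.00 and -0.14 with 0 genes called among 5, 6 and 6 tested. Of the adipocyte genes, linked to Aqp7, 3 of 6 were tested, 0 passed and the median was -0.12. Adipoq, the adipocyte hormone adiponectin, is named after its values were seen. Its signal was 86.0 in control and 12.3 in Pparg-cKO females, and 13.1 and 8.24 in males, with log2 ratios of -1.73 in females and -0.25 in males (adjusted p of 0.532 in limma). The summed signal of the adipocyte list was 18908 and 15003 in females and 14542 and 15105 in males. Nearly all of it came from Fabp4, at 18802 and 14976 in females and 14519 and 15086 in males.

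The DNA before the start of Aqp3 is shown because PPARG acts through binding sites, and because the neighbouring Aqp7 did not follow. The stretch comes from RefSeq (GRCm38.p6, a build other than that of the probes), at chr4:41098184-41098433 on the minus strand, and is written 5′ to 3′ in the sense of the gene, with the letters TATAAA in capitals.
Aqp3: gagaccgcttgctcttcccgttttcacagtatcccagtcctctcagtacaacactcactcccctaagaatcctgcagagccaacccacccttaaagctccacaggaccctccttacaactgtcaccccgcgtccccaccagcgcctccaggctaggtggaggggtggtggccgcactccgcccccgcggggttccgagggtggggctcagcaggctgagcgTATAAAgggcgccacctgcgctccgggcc
The capitals begin 29 bases before the start, and 64.0% of the 250 bases are G or C. Windows from 250 bases before to 50 bases after the start were available for 9 of the 10 members, 11 windows in all. The letters TATAAA on the sense strand were found in 1 of these, that of Aqp3, and in 8.32% of all 32851 windows. AGGTCA, the half-site of nuclear receptors, was found on either strand in 3 windows, those of Aqp11 and Aqp7, against 16.3% of all windows. The windows of Aqp7 overlap and share a site, counted at -49 from 1 start and at -223 from the other. The 3 windows are therefore not separate findings. AGGTCANAGGTCA, a direct repeat of this half-site, was found in 0 of the 11 windows and in 0.0396% of all. For Aqp3 neither form occurred in this window, which says only that these letters are not there.

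**Figure D5:**
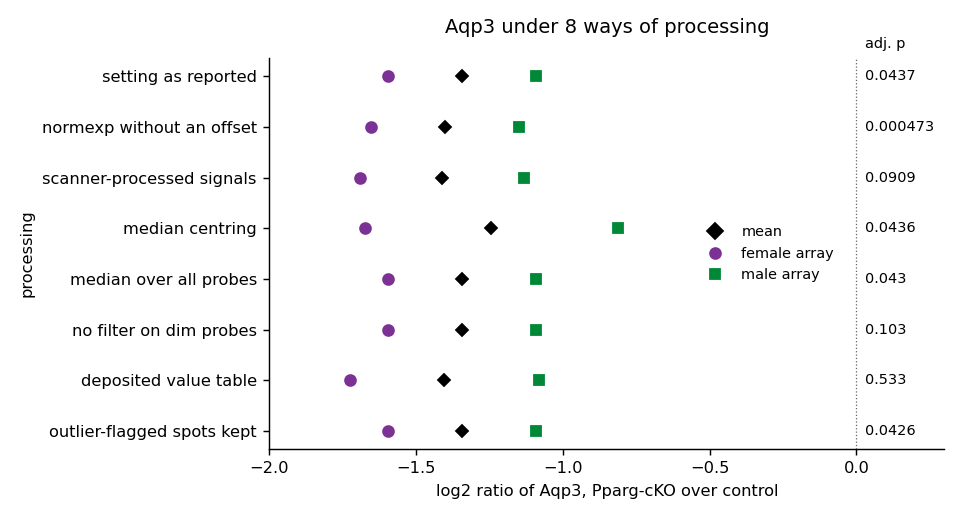
Log2 ratio of Aqp3 (Pparg-cKO over control) as the mean (diamonds) and on the female (circles) and male (squares) array under 8 ways of processing, with the adjusted p from limma at the right. All means lie between -1.41 and -1.24, and the adjusted p is under 0.05 in 5 of the 8.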

How the data were processed

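Total RNA of pooled E18.5 ureters was labelled after 1 round of T7 amplification and hybridised to 2 two-colour Agilent arrays that lay on 1 slide. The deposited scanner files give linear spot intensity (per the file headers), and the submitters' processing notes name Agilent Feature Extraction 10.7.3.1. In the authors' deposited value table each probe has a signed fold change, a ratio, for each array. Its log2 values correlated with those of red over green at a Pearson coefficient of 0.989 on replicate 1 and -0.993 on replicate 2 over 39429 probes, and its median was 0 on the log2 scale on both arrays; 28.3% and 28.4% of its values were exactly 1.

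Mean signals and median backgrounds were corrected with normexp (offset 50) and normalised by loess within arrays in limma 3.58.1 (R 4.3.3). Control spots carried no weight, and outlier-flagged spots (2.87% and 3.24%) were left out; 0 spots were saturated. A gene was represented by its brightest probe. The two-sided limma test covered genes detected above background on both arrays in 1 channel or more (22499 genes, 1 residual and 4.00 prior degrees of freedom), with Benjamini-Hochberg adjustment over all of them. Spots well above background made up 66.2% to 77.3% of a channel, and the number of arrays limits the precision. Alternatives were no offset, scanner-processed signals, median centring, the median over all probes, no filter on dim probes, the deposited table, outliers kept, and each array alone. Per the study's methods, pools were of sex-sorted embryos and controls were littermates without cre; p-values measure the spread between these arrays. By rule, the genes named were the members, Pparg, listed genes past a rule, and the 5 genes nearest to Aqp3; other listed genes and the neighbours of Aqp3 were named after their values were seen. Members and lists were chosen with earlier results of these data known. Gene names are those of the array design, and exon positions were not analysed here.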

Additional observations from a re-analysis of the deposited data

Results flagged for a closer look

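Among 97 aquaporins and listed genes tested, only Krt5, a keratin of basal urothelial cells, was at least 1.2-fold changed on each array in opposite directions. In females its log2 ratio was -0.86 and in males 0.35, a male minus female difference of 1.20, and this difference was not tested, since each sex had 1 array. No aquaporin met this condition.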

How the results depend on the processing

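The log2 ratio of Aqp3 stayed negative under all 7 alternatives run on both arrays, but the limma call was lost under 3: scanner-processed signals (mean of -1.41, 0 members called), no filter on dim probes (-1.34, 0 members) and the deposited value table (-1.40, 0 members). The cause was not tested. The number of genes called was 571 without the offset, 94 without the filter and 0 with the deposited table (169 as reported). Aqp3 passed the fold rule under every alternative, also on each array alone. The number of all genes past this rule was 217 to 291 under the alternatives on both arrays (258 as reported), 444 without replicate 2 and 1253 without replicate 1. The female array alone gave -1.60 for Aqp3 and -0.11 for the median of the members, and the male array alone -1.09 and -0.17; single arrays could not be fitted in limma for want of residual degrees of freedom. That median was -0.12 as reported, -0.18 without the offset, and -0.27 both with scanner-processed signals and with the deposited table. Among tested members and alternatives run on both arrays, the sign turned for Aqp5, at -0.038 with median centring; Aqp1, Aqp4 and Aqp5 had opposite signs on the single arrays, and the signs of the undetected Aqp6 and Aqp9 also varied. Of 90 recomputed member values, 82 kept direction and call or moved by less than the spread between arrays. For dim probes, brightness near background limits what ratios can show. Each array's ratio compares a pair of pools directly, so that the fit was paired by construction.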
